A study of Mus musculus with 8 samples.

Results

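The genes described here encode the extracellular side of Wnt signalling in the mouse: Wnt ligands, Frizzled (Fzd) receptors, secreted Frizzled-related proteins (Sfrp), Dickkopf proteins (Dkk) and R-spondins (Rspo). They were chosen by symbol, as every protein-coding gene named with 1 of those 5 stems, a number and at most an a or b, which gave 41 of 21887 protein-coding genes (19 Wnt, 10 Fzd, 4 Sfrp, 4 Dkk and 4 Rspo). Muscle stem cells, also called satellite cells, had been taken from skeletal muscle of C57BL/6 mice. The activated group (ASC) came from muscle injured with BaCl2, 2.5 days after the injury. The freshly isolated group (FISC) had no treatment. The labels name no other allele, no transgene and no age or sex. Each group had 2 H3K27ac libraries and 2 input libraries, and the peak lists used here came from the 4 H3K27ac libraries.

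H3K27ac, acetylation of lysine 27 on histone H3, marks promoters and enhancers that are in use. A Wnt ligand binds a Frizzled receptor, often together with Lrp5 or Lrp6, and in the canonical branch this stabilises beta-catenin, which then acts on genes with TCF/LEF factors. Sfrp proteins bind Wnt ligands and some Dkk proteins bind the Lrp coreceptors, so both can block the signal. R-spondins act through Lgr receptors to keep Frizzleds at the cell surface. In muscle, Fzd7 is known as the satellite cell receptor for Wnt7a, and Wnt4 made by the muscle fibre is known to help keep satellite cells quiescent.

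What was compared is breadth: the kb of DNA under H3K27ac peaks, not the height of the peaks. For each gene it was summed in 3 places. The ends are all positions within 2 kb of either gene end, the body is what lies between them, and the flanks run from 2 to 50 kb outside the gene, whatever other genes lie there. ASC and FISC were compared with limma over all genes covered in at least 2 libraries, with Benjamini-Hochberg adjustment over those genes, and a difference was called when its adjusted p was under 0.05. A gene with no peak in ASC, or none in FISC, passed the filter of 2 covered libraries through the other group alone. Its p is then no separate support for the difference. Differences are ASC minus FISC, in kb, with a standard error (SE) from the fit. In bulk chromatin, fewer cells of a type that carry a peak and less signal per cell cannot be told apart.

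The ASC lists held more: 50154 and 54700 peaks over 49.2 and 57.7 Mb in ASC, against 45014 and 43092 peaks over 34.4 and 33.7 Mb in FISC. That total moves with every breadth below, and its part in the results was not tested beyond 2 rescalings, which either divide each list by its covered length or trim all lists to equal covered length. Trimming kept the peaks with the highest −log10 q, 18090 and 14488 in ASC and 42792 and 43092 in FISC. It therefore removed peaks mostly from the ASC lists. The sources used here do not give the read depth. Cell identity was checked by the ends of marker genes. All 11 satellite cell markers were covered in at least 1 library and 10 in all 4, with summed ends of 36.0 and 38.9 kb in ASC and 34.6 and 36.0 kb in FISC. Single markers differed more than these sums: 4 rose (Itga7, Vcam1, Fgfr4 and Met) and 2 fell (Calcr and Cxcr4). Calcr had no peak at its ends in ASC and 1.31 and 0.947 kb in FISC. Covered in some library were 5 of 10 markers of fibro-adipogenic cells, 4 of 10 of endothelial cells, 4 of 10 of myeloid cells, 3 of 8 of lymphoid cells, 7 of 9 of smooth muscle cells and pericytes, 3 of 6 of Schwann cells and 1 of 5 of tendon cells. Endothelial Pecam1 and Cdh5, myeloid Ptprc and Itgam, and fibro-adipogenic Pdgfra were at 0 at their ends in all 4 libraries, and Ptprc was at 0 in body and flanks too. Other places were not empty: the Pecam1 body held 3.49 and 3.88 kb in ASC and 4.44 and 4.85 kb in FISC, and the Cdh5 body 3.39 and 3.91 kb in ASC and none in FISC (adjusted p = 0.00478). The body of Esam, also endothelial, went the other way, with none in ASC and 0.334 and 0.443 kb in FISC (adjusted p = 0.0145). The ends of Ly6a, a fibro-adipogenic marker, held 1.44 and 2.42 kb in ASC and none in FISC (adjusted p = 0.0156). Of the 5 fibro-adipogenic markers tested at the ends, Ly6a and Gsn rose and Dpt fell. Dpt had 0.761 and 1.26 kb in ASC and 2.37 and 2.27 kb in FISC (adjusted p = 0.0123). Summed myeloid ends were 3.94 and 5.41 kb in ASC and 2.60 and 2.36 kb in FISC. Nearly all of that was Cd68 and Spi1, the only 2 tested, and neither passed (adjusted p = 0.118 and 0.0748). Smooth muscle and pericyte ends summed to 6.79 and 8.42 kb in ASC and 9.39 and 8.85 kb in FISC. That last sum hides opposite changes: of 6 such markers tested, 1 rose (Notch3) and 4 fell (Pdgfrb, Abcc9, Cspg4 and Tagln). Over all genes tested at the ends, 26.5% rose and 3.61% fell. Fibro-adipogenic ends summed to 7.13 and 8.66 kb in ASC and 5.96 and 5.87 kb in FISC, endothelial ends to 1.22 and 1.79 kb in ASC and 2.37 and 2.56 kb in FISC. What such cells contribute to the values below was not tested.

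At the gene ends, every receptor gene was covered and no Dickkopf gene was. All 10 Fzd genes had a peak at an end in all 4 libraries. Of the 19 Wnt genes 13 were covered in some library and 6 in all 4. Sfrp2 and Sfrp4 were covered in all 4 libraries and Sfrp1 in some, no Dkk gene was covered in any, and Rspo1 and Rspo3 had 1 small peak each, in 1 FISC library. In total 28 of the 41 members were covered at an end in some library, beside 62.0% of all 21887 genes. The 13 members with no peak at an end in any library were Wnt1, Wnt3, Wnt7a, Wnt8b, Wnt9b, Wnt16, Sfrp5, Dkk1, Dkk2, Dkk3, Dkk4, Rspo2 and Rspo4. Wnt7a, a ligand that drives satellite cell expansion, therefore had no peak at either end in ASC or FISC. Dkk1 and Rspo2 were at 0 in all 3 places.

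Of the 25 members that could be tested at the ends, 9 rose in ASC and none fell, while 16 did not pass. The share of all 12924 genes tested that rose was 26.5%, and 3.61% fell. Those that rose were 5 ligands (Wnt2b, Wnt9a, Wnt10a, Wnt8a, Wnt3a) and 4 receptors (Fzd2, Fzd5, Fzd7, Fzd1). The median difference of the 25 members was 0.191 kb, against 0.30 kb over all genes. In 12 members both ASC values exceeded both FISC values, as in 62.1% of all genes, and in 3 both were lower, as in 11.0%. No adjusted p passed, for a member or any other gene, when either FISC library was left out, although 8 members without FISC replicate 1 and 10 without FISC replicate 2 had an unadjusted p under 0.05. Dividing by each list's total turned the balance to 5 higher and 8 lower of 25, where 9.19% of all genes were then higher and 36.6% lower. Trimming to equal length gave 3 higher and 4 lower of 22, with 15.8% and 13.1% of all genes. The calls of Fzd1, Fzd5, Fzd7 and Wnt9a were lost after division, and those of Wnt2b, Wnt8a, Wnt9a, Wnt10a and Fzd5 with equal lengths, where Wnt3a could not be tested.

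**Figure D1:**
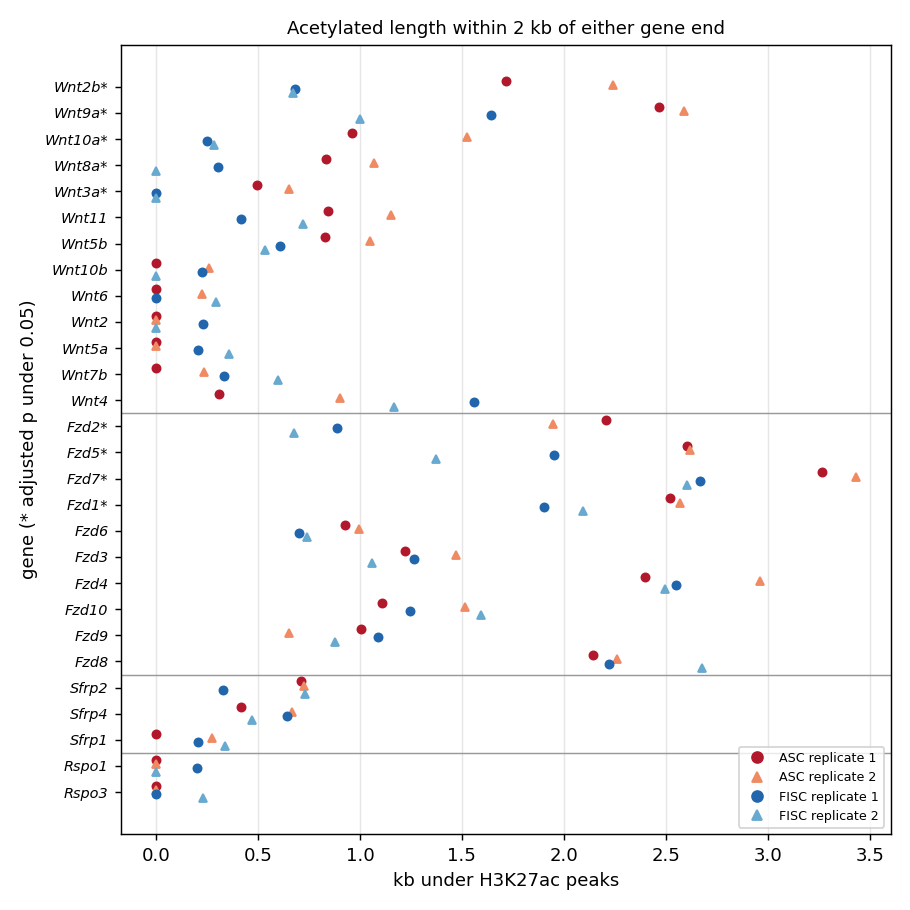
Kb under H3K27ac peaks within 2 kb of either gene end (horizontal axis), for the 28 members covered in at least 1 library, in ASC (red) and FISC (blue), 1 point per library, grouped by family and sorted by difference; a star marks an adjusted p under 0.05. Fzd7 reaches 3.27 and 3.43 kb in ASC, and all 9 starred genes have both ASC points right of both FISC points.

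The promoters of the 3 called members with the largest gains at their ends and an entry in the RefSeq promoter table are shown to place the peaks at base level, with that of Fzd7 added after its values were seen because its upstream cover differed between the groups. Each is the 250 bases before the annotated start on GRCm38.p6, the assembly of mm10, read 5′ to 3′ on the gene's own strand (Wnt2b and Fzd5 minus, Wnt9a and Fzd7 plus), and capitals mark the only motif match among those searched. They lie at chr3:104961710-104961959 (Wnt2b), chr11:59306680-59306929 (Wnt9a), chr1:64737751-64738000 (Fzd5) and chr1:59481897-59482146 (Fzd7).
Wnt2b: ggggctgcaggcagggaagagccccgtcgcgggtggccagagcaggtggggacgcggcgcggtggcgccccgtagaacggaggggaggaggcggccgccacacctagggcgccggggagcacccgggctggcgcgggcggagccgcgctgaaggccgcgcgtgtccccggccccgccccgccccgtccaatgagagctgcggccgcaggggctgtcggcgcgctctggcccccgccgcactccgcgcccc
Wnt9a: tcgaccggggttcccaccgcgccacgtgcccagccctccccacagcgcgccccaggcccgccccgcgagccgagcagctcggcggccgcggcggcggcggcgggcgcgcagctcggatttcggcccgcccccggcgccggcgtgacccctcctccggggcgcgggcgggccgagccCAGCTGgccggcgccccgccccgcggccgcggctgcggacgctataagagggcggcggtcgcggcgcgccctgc
Fzd5: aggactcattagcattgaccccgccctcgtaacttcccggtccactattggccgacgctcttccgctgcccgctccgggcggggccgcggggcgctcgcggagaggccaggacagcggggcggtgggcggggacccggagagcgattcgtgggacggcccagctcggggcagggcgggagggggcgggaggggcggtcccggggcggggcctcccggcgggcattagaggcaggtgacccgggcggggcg
Fzd7: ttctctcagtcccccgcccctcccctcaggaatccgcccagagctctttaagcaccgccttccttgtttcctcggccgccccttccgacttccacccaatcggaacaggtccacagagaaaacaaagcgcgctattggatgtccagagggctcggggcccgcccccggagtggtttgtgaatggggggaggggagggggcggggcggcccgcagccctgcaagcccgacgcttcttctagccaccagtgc

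The Fzd7 sequence lay wholly under a peak in both ASC libraries (250 and 250 of its 250 bases), against 39 and 39 bases in the FISC libraries. That of Wnt2b had 250 and 250 bases under peaks in ASC and 44 and 28 in FISC. The Wnt9a stretch had 73 and 42 bases in ASC and 0 and 0 in FISC, and the Fzd5 stretch 71 and 55 in ASC and 146 and 0 in FISC. So the peaks reached over the whole upstream stretch of Fzd7 and Wnt2b in ASC only, whereas at Wnt9a most of it was free of peaks in all 4 libraries and at Fzd5 in all but FISC replicate 1. At Fzd7 the FISC libraries had peaks further upstream, from -1.245 to -0.222 kb and from -1.241 to -0.211 kb of the start. Their next peaks began at -0.011 and 0.001 kb, so the stretch lay mostly in a gap between FISC peaks. The capitals in Wnt9a are an E-box, CAGCTG, whose first base lies 74 bases before the start. The search covered TCF/LEF letters (CTTTGAT or CTTTGAA), the E-box CAGCTG and the AP-1 letters TGANTCA, on both strands. They were found in 3, 2 and 1 of the 30 member promoters, and in 7.48%, 13.0% and 6.75% of 32851 RefSeq promoters of the same length. A match is a description of the letters only.

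Among the ligands, Wnt2b, a canonical Wnt, had 1.72 and 2.24 kb under peaks at its ends in ASC, against 0.681 and 0.671 kb in FISC. Both ASC libraries were above both FISC libraries, and the difference was 1.30 kb (SE 0.203, adjusted p = 0.0124). The gain lay at the end away from the annotated start, in a stretch that St7l also overlaps: regions chr3:104944416-104944955 and chr3:104945155-104946064 had peaks in both ASC libraries and in neither FISC library. Around the start itself Wnt2b had 0.571 and 0.859 kb in ASC and 0.681 and 0.671 kb in FISC, so that the groups overlapped there and the call was lost when annotated starts alone were used.

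Wnt9a, which lies next to Wnt3a, had 2.47 and 2.59 kb at its ends in ASC, against 1.64 and 1.0 kb in FISC, a difference of 1.21 kb (SE 0.242, adjusted p = 0.0234). The groups did not overlap, but the call was lost under both rescalings. Its neighbour Wnt3a, a canonical ligand, had 0.494 and 0.654 kb in ASC and none in either FISC library, a difference of 0.574 kb (SE 0.0929, adjusted p = 0.0138). Wnt3a entered the fit through the ASC libraries alone. The ASC peaks at Wnt3a formed the regions chr11:59291824-59292281 and chr11:59292528-59292933, beyond the gene end that faces Wnt9a.

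Wnt10a, a ligand best known from skin appendages and teeth, had 0.959 and 1.53 kb in ASC, against 0.248 and 0.283 kb in FISC (difference 0.977 kb, SE 0.205, adjusted p = 0.0261). Part of the gain was the region chr1:74803192-74803783 near its higher-coordinate end, with 402 and 592 bases under peaks in ASC and none in FISC. Wnt8a, a ligand of early embryonic patterning, had 0.833 and 1.07 kb in ASC, against 0.303 and 0 kb in FISC (difference 0.799 kb, SE 0.151, adjusted p = 0.0202). At both genes the groups did not overlap. Trimming the lists to equal length turned the difference to -0.23 kb at Wnt2b and -0.17 kb at Wnt10a.

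The remaining 7 ligands tested at the ends did not pass. Wnt4 had the largest negative difference, with 0.307 and 0.9 kb in ASC, against 1.56 and 1.17 kb in FISC. Both ASC libraries were below both FISC libraries, and the difference was -0.76 kb (SE 0.249, adjusted p = 0.0752). The same order was seen at Wnt5a, a ligand of the non-canonical branch, with 0 and 0 kb in ASC and 0.206 and 0.356 kb in FISC (adjusted p = 0.0657), and at Wnt7b, with 0 and 0.235 kb in ASC and 0.334 and 0.597 kb in FISC (adjusted p = 0.112). Wnt4 and Wnt7b passed as lower when only peaks with a −log10 q of at least 5 were kept, and under both rescalings. Wnt5a passed as lower after division by the totals. Wnt5b and Wnt11, both known from non-canonical signalling, had both ASC libraries above both FISC libraries without passing (adjusted p = 0.0752 and 0.113). In Wnt6 and Wnt10b the groups overlapped.

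Receptors carried the widest ends of the family, and the 5 members with the highest mean over the 4 libraries were Fzd7, Fzd4, Fzd8, Fzd1 and Fzd5. Per window length, which is at most 8 kb and shorter at short genes, Fzd7 had the largest share under peaks in ASC, 41.9%. Below it in ASC came Fzd4 with 33.5%, Fzd5 with 32.7%, Fzd1 with 31.8%, Fzd8 with 30.0%, Fzd2 with 27.2%, Fzd10 with 18.8%, Fzd3 with 16.8%, Fzd9 with 13.6% and Fzd6 with 12.0%. In FISC the order was Fzd8 with 33.3%, Fzd7 with 32.9%, Fzd4 with 31.5%, Fzd1 with 25.0%, Fzd5 with 20.8%, Fzd10 with 20.3%, Fzd9 with 16.1%, Fzd3 with 14.5%, Fzd2 with 10.3% and Fzd6 with 9.02%. Among neighbours in the ASC order, Fzd4 overlapped Fzd5, and Fzd10, Fzd3, Fzd9 and Fzd6 each overlapped the next, while Fzd7 stood above Fzd4 in both libraries. Among neighbours in the FISC order, the libraries overlapped between Fzd8 and Fzd7, between Fzd1 and Fzd5, between Fzd5 and Fzd10, between Fzd9 and Fzd3 and between Fzd2 and Fzd6. Differences between receptors were not tested.

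Fzd7 had 3.27 and 3.43 kb at its ends in ASC, against 2.67 and 2.60 kb in FISC, with no overlap and a difference of 0.713 kb (SE 0.154, adjusted p = 0.0278). Within each library its strongest end peak, by the fold enrichment the authors deposited, was 19.2 and 19.9 in ASC and 9.41 and 11.5 in FISC, at the 86.4th and 88.6th percentile of the ASC lists and the 80.9th and 84.7th of the FISC lists. Those percentiles only place the peak within its own list. Divided by each list's total, the breadth difference at Fzd7 became -0.63 kb, and Fzd7 was then called lower (adjusted p = 0.0499).

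Fzd2 had the largest receptor gain at the ends, with 2.21 and 1.95 kb in ASC, against 0.889 and 0.679 kb in FISC (difference 1.29 kb, SE 0.157, adjusted p = 0.00713). It passed as higher under both rescalings. Fzd5 had 2.61 and 2.62 kb in ASC, against 1.95 and 1.37 kb in FISC (difference 0.951 kb, SE 0.224, adjusted p = 0.0346), and its difference was -0.009 kb after trimming to equal length. Fzd1 had 2.52 and 2.57 kb in ASC, against 1.90 and 2.09 kb in FISC (difference 0.548 kb, SE 0.143, adjusted p = 0.0452), and -0.47 kb after division by the totals. In these 3 receptors, too, both ASC values exceeded both FISC values.

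Fzd4 and Fzd8 were as wide but did not pass. Fzd4, the receptor for Norrin as well as for Wnt ligands, had 2.40 and 2.96 kb in ASC and 2.55 and 2.50 kb in FISC, with overlapping groups (adjusted p = 0.62). Its start window also holds an end of Tmem135. Fzd8 had 2.14 and 2.26 kb in ASC and 2.22 and 2.68 kb in FISC, also overlapping (difference -0.248 kb, adjusted p = 0.373). Fzd6 had both ASC libraries above both FISC libraries (adjusted p = 0.132), and Fzd3, Fzd9 and Fzd10 overlapped. The 3 testable Sfrp genes overlapped as well, with differences between -0.134 and 0.191 kb. After division by the totals Fzd4, Fzd8, Fzd9 and Fzd10 were called lower, where 36.6% of all genes were lower. With lists of equal length Fzd9 and Sfrp4 were called lower, where 13.1% of all genes were.

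Annotated starts were at hand for 27 of the 41 members, with 30 entries. A peak lay within 2 kb of the start in all 4 libraries at 12 of those entries, in none at 12 and in 1 to 3 libraries at 6. The 250 bases before a start had a median GC content of 75.8% and a median of 35.5 CpG sites where a peak lay within 2 kb in all 4 libraries. Where none did, the medians were 64.4% and 19 CpG sites. These are descriptions with no test, and the ranges overlapped (51.2 to 85.2% GC with such peaks and 48.4 to 79.6% without). A peak that near need not reach the start: at Wnt4 the 250 bases before it had 0 and 0 bases under peaks in ASC and 47 and 0 in FISC.

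In the gene bodies, 1 member rose and none fell among 7 tested, where 42.8% of 6528 genes tested rose and 9.73% fell. The member was Wnt7b, a ligand known from lung, kidney and bone development, with 2.28 and 3.19 kb in ASC and none in either FISC library (difference 2.74 kb, SE 0.371, adjusted p = 0.00962). Nearly all of it lay in 4 regions of the gene, chr15:85573664-85574129, chr15:85574232-85574716, chr15:85574909-85575707 and chr15:85575839-85577110, each with a peak in both ASC libraries and in neither FISC library, and 225 bases in chr15:85577612-85577836 in ASC replicate 2 alone. Of the 7, 2 had both ASC values over both FISC values (64.1% of all genes) and 1 had both under (16.9%). The Wnt7b gain stood under both rescalings, but the gene entered the fit through the ASC libraries alone. With either FISC library left out no gene of the 6528 passed, and 1 member had an unadjusted p under 0.05 in each of those fits.

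The flanks of Wnt7b did not show the same. They were the widest of all members, with 12.7 and 15.0 kb in ASC and 14.9 and 14.5 kb in FISC, and the groups overlapped (difference -0.88 kb, SE 1.42, adjusted p = 0.624). All of that flank cover lay between protein-coding genes. Wnt5b had the largest body difference, with 4.95 and 7.74 kb in ASC, against 3.15 and 1.97 kb in FISC, but did not pass (difference 3.78 kb, SE 1.14, adjusted p = 0.0594). The body of Wnt5b also holds the gene Fbxl14, under whose region chr6:119478172-119481564 lay 2736 and 3393 bases in ASC and 2275 and 1973 bases in FISC. A further region in that body, chr6:119512205-119513928, had 1591 and 1724 bases in ASC and no peak in FISC.

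**Figure D2:**
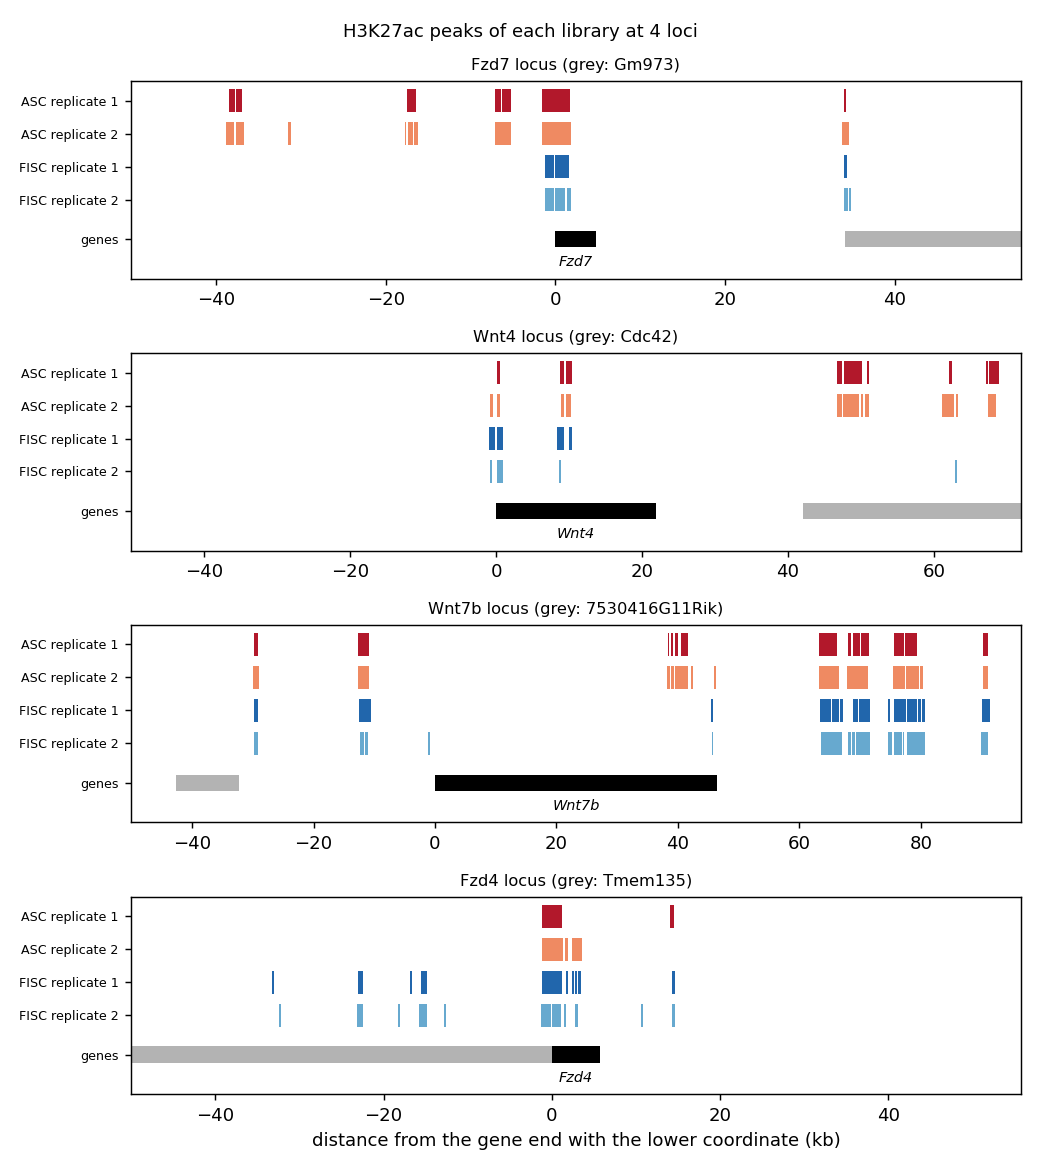
H3K27ac peaks at the Fzd7, Wnt4, Wnt7b and Fzd4 loci, 1 row per library (ASC in red above FISC in blue), against the distance in kb from the gene end with the lower coordinate; the gene is black and other protein-coding genes grey. ASC has peaks upstream of Fzd7, beyond Wnt4 and inside Wnt7b that FISC lacks, and FISC has peaks left of Fzd4 that ASC lacks.

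In the flanks, 16 of 32 tested members rose, 3 fell and 13 did not pass. Over all 15985 genes tested, 46.0% rose and 5.71% fell. The median difference was 0.973 kb in the members and 0.963 kb over all genes. In 20 members both ASC values exceeded both FISC values, against 68.7% of all genes, and in 4 below, against 11.1%. By family, 9 of 16 Wnt, 4 of 8 Fzd, 2 of 3 Dkk, 1 of 2 Rspo and 0 of 3 Sfrp genes tested rose, and Wnt8b, Fzd4 and Fzd9 fell. Dividing by the totals left 10 higher and 9 lower of 32, where 24.5% of all genes were then higher and 31.1% lower. Trimming to equal length left 9 higher and 7 lower of 29, with 18.4% and 21.1% of all genes. The calls of Wnt6, Wnt5b, Fzd3, Fzd5, Rspo1 and Dkk4 were lost after division, and those of Wnt4, Wnt6, Wnt5b, Fzd2 and Dkk4 with equal lengths, where Wnt16 and Fzd3 could not be tested. Of the 19 calls, 11 passed in all 4 fits that left out 1 library. The other 8, Fzd5, Wnt6, Rspo1, Wnt5b, Fzd4, Dkk4, Fzd3 and Wnt8b, were lost in at least 1 of them.

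**Figure D3:**
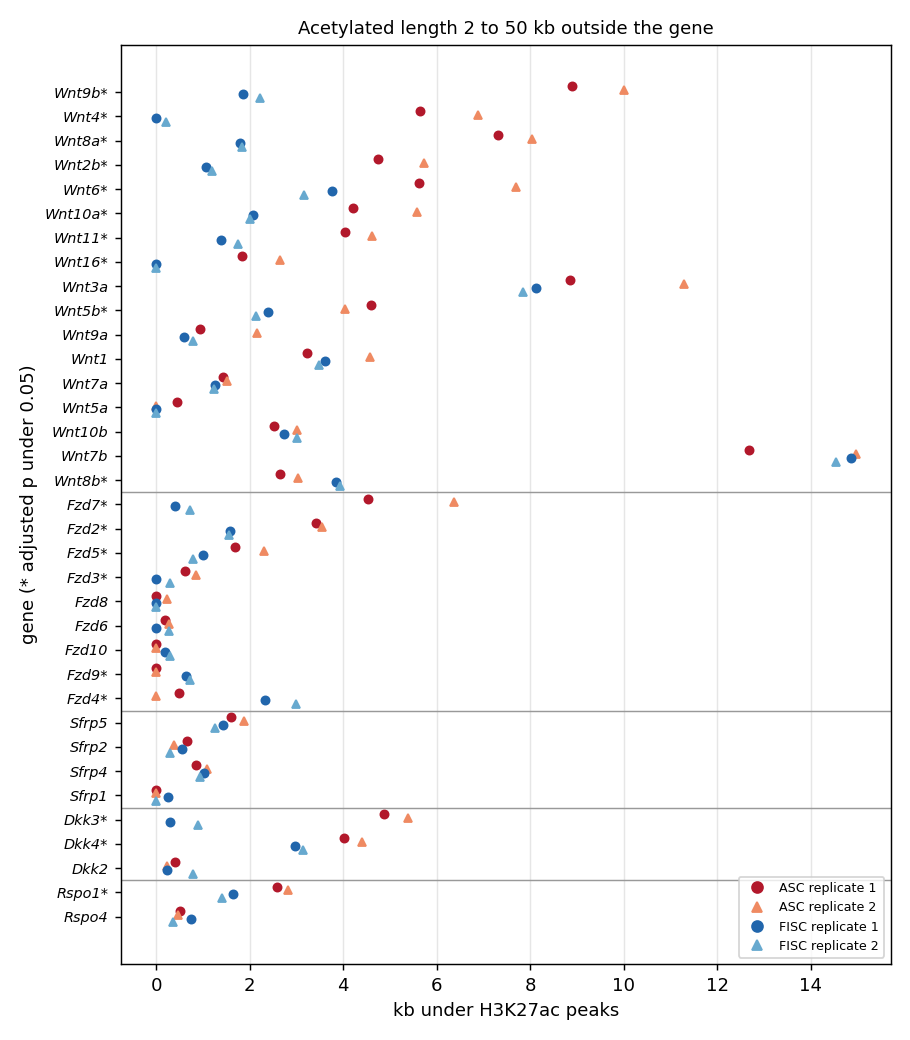
Kb under H3K27ac peaks 2 to 50 kb outside the gene (horizontal axis), for the 35 members covered in at least 1 library, 1 point per library, ASC in red and FISC in blue; a star marks an adjusted p under 0.05. The widest separations are at Wnt9b, Wnt4, Wnt8a and Fzd7, and Fzd4 and Fzd9 have both ASC points left of both FISC points.

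A flank can hold other genes, so the place of each called difference matters for reading it. Summed over the members' flanks, cover between genes was 43.9 kb in ASC and 26.7 kb in FISC on average, cover in the bodies of other genes 32.1 kb in ASC and 10.7 kb in FISC, and cover at the ends of other genes 40.0 kb in ASC and 28.0 kb in FISC. When only flank sequence outside other genes and nearest to the member was counted, 14 members could be tested. Of those, Dkk3, Fzd7, Wnt10a and Wnt11 rose, and Fzd10, Fzd9 and Wnt8b fell, while 51.6% of the 4410 genes tested that way rose and 11.1% fell.

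**Figure D4:**
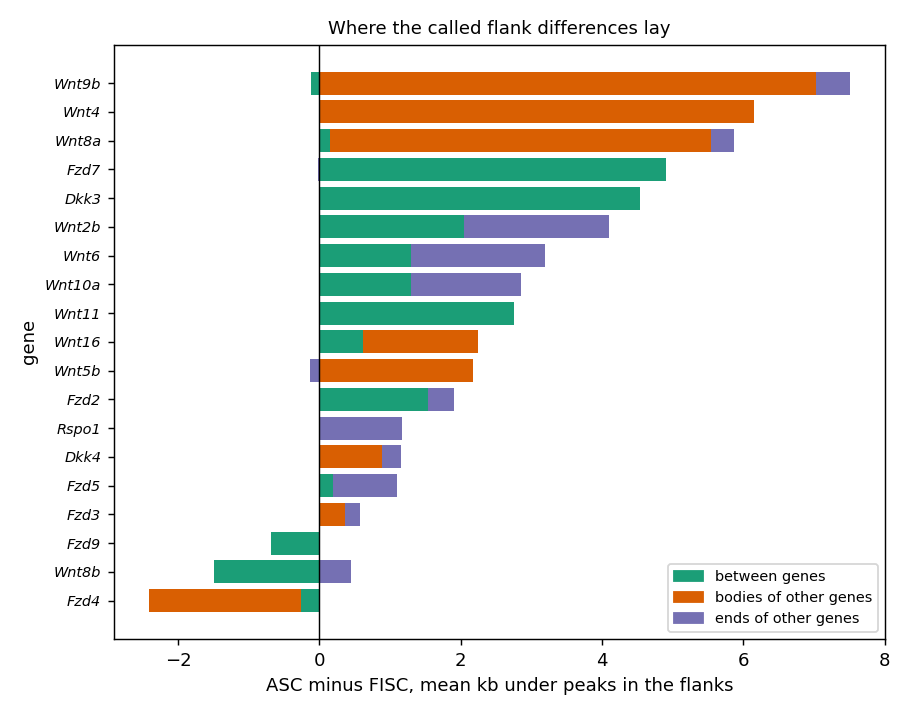
Mean kb under peaks in ASC minus FISC (horizontal axis) for the 19 members called in the flanks, split by where it lay: between genes (green), in the bodies of other genes (orange) and at the ends of other genes (purple). The bars of Fzd7, Dkk3 and Wnt11 are nearly all green, while that of Wnt4 is all orange and that of Rspo1 all purple.

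Fzd7 is the receptor with the largest flank gain, and nearly all of it lay between genes on the upstream side. Its flanks had 4.52 and 6.37 kb in ASC, against 0.398 and 0.720 kb in FISC, with no overlap (difference 4.89 kb, SE 0.621, adjusted p = 0.00164). The gain came from 4 regions with peaks in both ASC libraries and in neither FISC library. The nearest, chr1:59475019-59476948, lay 5.20 kb before the start and had 1794 and 1930 bases in ASC. The others were chr1:59464694-59465899 at 16.2 kb, chr1:59444457-59445428 at 36.7 kb and chr1:59443337-59444347 at 37.8 kb. On the far side of the gene, at the end of Gm973, the cover was 0.246 and 0.828 kb in ASC and 0.398 and 0.720 kb in FISC.

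Dkk3, a divergent Dickkopf protein, had no peak at its ends, but its flanks held 4.87 and 5.39 kb in ASC, against 0.305 and 0.886 kb in FISC (difference 4.54 kb, SE 0.375, adjusted p = 0.000524). All of it lay between genes. Most came from chr7:112202310-112205533, 42.8 kb from the gene, where 3002 and 3194 bases lay under peaks in ASC and 305 and 681 bases in FISC. Wnt11 had 4.04 and 4.61 kb in ASC, against 1.38 and 1.76 kb in FISC (difference 2.76 kb, SE 0.364, adjusted p = 0.00185), in part from chr7:98814712-98817297, 17.8 kb away. In both genes the groups did not overlap. The flank calls of Fzd7, Dkk3, Wnt11, Wnt16, Wnt9b and Wnt8a passed in every alternative in which the gene was tested.

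At Wnt9b, Wnt4 and Wnt8a the gain lay inside a neighbouring gene. Wnt9b, a ligand of kidney development, had 8.89 and 10 kb in ASC, against 1.87 and 2.23 kb in FISC (difference 7.40 kb, SE 0.606, adjusted p = 0.000507). Of this, 7.02 kb net lay in the bodies of other genes. The gain came from the body of Gosr2, a Golgi SNARE gene, where chr11:103682769-103690464 carried 6939 and 7465 bases in ASC and none in FISC. Wnt4 had 5.63 and 6.88 kb in ASC, against 0 and 0.203 kb in FISC (difference 6.16 kb, SE 0.486, adjusted p = 0.00048). Every base of it lay in the body of Cdc42, and nearly all in 5 ASC-only regions between 24.8 and 45.3 kb away, beside chr4:137340539-137340911 with 0 and 217 bases in ASC and 0 and 203 bases in FISC. The flank of Wnt4 thus rose while its ends, above, had both ASC libraries below both FISC libraries without passing. With lists of equal length the flank call was lost (0.982 kb, adjusted p = 0.337), and the ends passed as lower.

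Wnt8a had 7.31 and 8.05 kb in its flanks in ASC, against 1.79 and 1.84 kb in FISC (difference 5.86 kb, SE 0.484, adjusted p = 0.000518), mostly in the body of Fam13b. Its largest region, chr18:34504737-34509356, carried 4179 and 4620 bases in ASC and 1788 and 1845 bases in FISC. Wnt2b had 4.75 and 5.72 kb in ASC, against 1.07 and 1.20 kb in FISC (difference 4.10 kb, SE 0.43, adjusted p = 0.000892). The region chr3:104992961-104994941, 31.3 kb from Wnt2b, and chr3:104999437-105002064 at the end of Cttnbp2nl had peaks in both ASC libraries and none in FISC. Within 20 kb of the gene the difference was -0.29 kb, so the Wnt2b gain lay beyond that distance.

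Wnt6 and Wnt10a are neighbours and share part of their flanks. Wnt6 had 5.63 and 7.70 kb in ASC, against 3.77 and 3.17 kb in FISC (difference 3.19 kb, SE 0.767, adjusted p = 0.0159), a call lost under both rescalings. Wnt10a had 4.22 and 5.58 kb in ASC, against 2.06 and 2.01 kb in FISC (difference 2.86 kb, SE 0.522, adjusted p = 0.00592). A region both flanks hold, chr1:74747853-74750105 at Prkag3, had 1395 and 2253 bases in ASC and 200 and 247 bases in FISC. The family has 4 such pairs with shared loci, Wnt6 with Wnt10a, Wnt3a with Wnt9a, Wnt9b with Wnt3 and Wnt10b with Wnt1, so the 8 members in them are not independent in the counts above.

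Wnt16, a ligand known from bone, had no peak at its ends and 1.84 and 2.64 kb in its flanks in ASC, against 0 and 0 kb in FISC (difference 2.24 kb, SE 0.278, adjusted p = 0.0015). Wnt16 entered the fit through the ASC libraries alone. Wnt5b had 4.59 and 4.04 kb in ASC, against 2.39 and 2.14 kb in FISC (difference 2.05 kb, SE 0.376, adjusted p = 0.00606), and -0.37 kb after trimming to equal length. Among the receptors, Fzd2 had 3.42 and 3.55 kb in ASC, against 1.59 and 1.57 kb in FISC (difference 1.91 kb, SE 0.276, adjusted p = 0.00254). None of these groups overlapped. Fzd5 had 1.69 and 2.31 kb in ASC, against 1.01 and 0.787 kb in FISC (difference 1.10 kb, adjusted p = 0.0157), and Fzd3 0.611 and 0.849 kb in ASC, against 0 and 0.299 kb in FISC (difference 0.581 kb, adjusted p = 0.0238).

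Rspo1, an R-spondin expressed by satellite cells, had 2.58 and 2.82 kb in its flanks in ASC, against 1.64 and 1.42 kb in FISC (difference 1.17 kb, SE 0.257, adjusted p = 0.0114). All of that cover lay at the ends of other genes, and none in the rest of the flanks. Dkk4 had 4.01 and 4.40 kb in ASC, against 2.96 and 3.14 kb in FISC (difference 1.16 kb, SE 0.379, adjusted p = 0.0441), and -0.47 kb after division by the totals. Its 2 widest regions lay at the ends of Vdac3 and Polb, but 0.889 kb of the difference lay in the bodies of other genes, in chr8:22589191-22589879 in Vdac3 and chr8:22676192-22676711 in Ikbkb, both ASC only. Wnt7a, which has no peak at its ends, had 1.44 and 1.51 kb in its flanks in ASC and 1.26 and 1.23 kb in FISC (difference 0.231 kb, adjusted p = 0.311).

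Of the 3 losses, Fzd4 was the widest, with 0.481 and 0 kb in ASC, against 2.32 and 2.98 kb in FISC (difference -2.41 kb, SE 0.298, adjusted p = 0.00148). Of it, 2.15 kb lay in the body of Tmem135, whose regions chr7:89381156-89381969 and chr7:89388599-89389525 had peaks in both FISC libraries and in neither ASC library. Counted in nearest flanks outside other genes, Fzd4 was no longer called. The call was lost without ASC replicate 2, and it stood under both rescalings. Fzd9 had none in either ASC library, against 0.636 and 0.719 kb in FISC, all from chr5:135258328-135259046, 7.28 kb from the gene and between genes (difference -0.677 kb, SE 0.11, adjusted p = 0.00381). Fzd9 entered the fit through the FISC libraries alone. With flanks taken to 100 kb its difference was 1.07 kb. Wnt8b had 2.65 and 3.03 kb in ASC, against 3.84 and 3.94 kb in FISC (difference -1.05 kb, SE 0.357, adjusted p = 0.0495). Its FISC cover included chr19:44458583-44460179, with 1147 and 1597 bases in FISC and no peak in ASC. The Wnt8b call stood under both rescalings. It was lost with a −log10 q of at least 5, no filter on covered libraries, a replicate block, flanks to 100 kb or any library left out.

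Counted as regions, the union of the 4 lists put 199 of its 72546 regions in a member gene or within 50 kb of one. Of these, 64 had a peak in all 4 libraries, 32.2% against 26.9% of all regions. Peaks in both ASC libraries and no FISC library were found in 40 of them, 20.1% against 19.9% of all regions. The reverse pattern, both FISC libraries and no ASC library, was found in 10, 5.03% against 7.31%. A further 71 had a peak in 1 library only. With lists trimmed to equal length the members held 134 regions, 6 of them ASC only and 37 FISC only, 4.48% and 27.6%, against 3.39% and 28.0% of all 46662 regions. That trimming removed peaks mostly from the ASC lists.

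The rest of the pathway, a list of 72 genes, changed little at the gene ends. Of 58 tested, 7 rose and 1 fell, with a median difference of 0.127 kb, beside the 26.5% that rose and 3.61% that fell over all genes. In the bodies 16 of 44 rose and 6 fell, beside 42.8% and 9.73% of all genes, and in the flanks 24 of 57 rose and 6 fell, beside 46.0% and 5.71%. No alternative in which the gene was tested removed the flank losses at Ror1 (-4.02 kb) and Vangl2 (-2.11 kb). The same held for the flank gains at Axin2 (5.70 kb), Tcf7l2 (4.92 kb), Tspan12 (4.10 kb) and Dact2 (1.32 kb). Dact2 could not be tested with lists of equal length. All these flanks were named by their results and were not split by place. Lgr5, a receptor for R-spondins, had 1.91 and 1.94 kb at its ends in ASC and none in FISC (difference 1.93 kb, SE 0.103, adjusted p = 0.00196), and lost its call only when a FISC library was left out. Lgr5 entered the fit through the ASC libraries alone. Lef1, a nuclear partner of beta-catenin, had 1.84 and 1.58 kb in ASC, against 0 and 0.426 kb in FISC (difference 1.5 kb, SE 0.189, adjusted p = 0.00783), and was not called with lists of equal length. Ror1, a receptor kinase for Wnt5a, was the gene that fell at the ends, with 1.03 and 1.06 kb in ASC, against 1.98 and 1.92 kb in FISC (difference -0.906 kb, SE 0.119, adjusted p = 0.00838).

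The other 5 that rose at the ends had smaller differences. They were Tnks with 0.829 kb (adjusted p = 0.0101) and Tnks2 with 0.5 kb (adjusted p = 0.043), tankyrases that promote turnover of Axin, Gpc4 with 0.802 kb (adjusted p = 0.0302), a glypican, Gsk3a with 0.74 kb (adjusted p = 0.0406), a kinase of the beta-catenin destruction complex, and Btrc with 0.579 kb (adjusted p = 0.0196), a ubiquitin ligase subunit that targets beta-catenin. After division by the totals these 5 no longer passed, and Gsk3a and Tnks2 turned to -0.42 and -0.47 kb. Axin2, a common target and inhibitor of canonical signalling, had no peak at its ends in any library. Its flanks were chosen for mention after their values were seen, and were not split by place as those of the members were. They had 5.57 and 6.10 kb in ASC, against 0 and 0.261 kb in FISC (difference 5.70 kb, SE 0.354, adjusted p = 0.00045), a call that no alternative removed. All 8 calls were lost when either FISC library was left out, and Lgr5 alone kept its call without either ASC library.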

How the data were processed

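The 8 samples were 4 H3K27ac and 4 input libraries, made by ChIPmentation (antibody-bound chromatin tagmented into a library) and sequenced on an Illumina instrument, per the labels' protocols. The submitters' processing notes name bcl2fastq 2.19, BWA, Picard, MACS2 and the build mm10. How the aligner and peak caller were set, and whether inputs were used in calling, is not given in the sources used here. Deposited was 1 narrow peak list per H3K27ac library, so peaks were called per library. Besides positions, the authors deposited for each peak a score, a fold enrichment (ratio), a −log10 p value and a −log10 q value. Fold enrichment was used only to describe peaks within a list, and −log10 q as an alternative filter. The inputs entered no test, and read depth is not analysed here, so precision is given by the spread between libraries.

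Bases under peaks were summed per gene for 21887 protein-coding RefSeq genes (GRCm38.p6) with pandas 2.3.3, and fitted with limma 3.58.1 in R 4.3.3 (eBayes with trend, linear kb, genes covered in at least 2 of 4 libraries, no covariate). The script was checked on simulated data. The labels do not say that replicates came from separate mice, so p-values measure only the spread between these libraries. The replicate numbers were not taken as pairs. Strand and starts came from the RefSeq promoter table, which holds starts for 17492 genes. Adgra2 stood for the listed Gpr124.

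The members, the gene lists and the tests were chosen with earlier results of these data known. Members called in any place, and the 5 with the widest ends, are given with all 4 values, the others by range and count. Of the pathway list every gene called at the ends is named, and promoters are those of the 3 called members with the largest gains and an entry. Alternatives were both rescalings, a −log10 q of at least 5, no filter on covered libraries, ends of 1 and 5 kb, annotated starts, flanks of 20 and 100 kb, nearest flanks outside other genes, a replicate block, regions 50% covered, and each library left out. For genes with no annotated start, such as Fzd2 and Wnt8a, the annotated-start alternative took the end with more cover over the 4 libraries.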

Additional observations from a re-analysis of the deposited data

How the results depend on the processing

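Limits first. With 2 libraries per group and no read depth, breadth moves with how much each list called, and 2 rescalings were tried for that. Dividing by covered length moved the median difference of all genes from 0.30 to -0.345 kb at the ends, and from 0.963 to -0.259 kb in the flanks, so single genes are best read relative to those shifts. At the ends the 9 members higher in ASC became 5 after division by the totals, 3 with equal lengths, 1 with no filter, 3 within 1 kb and 0 to 3 with a library left out. Members lower at the ends, 0 in the main analysis, became 8 after division, 4 with equal lengths, 2 with a −log10 q of at least 5 and 1 with a crossed replicate block. In the bodies the 1 higher member became 2 with a −log10 q of at least 5, with no filter and with either block, and 0 to 1 with a library left out, while 0 lower became 1 after division, 2 with equal lengths and 1 with a −log10 q of at least 5. In the flanks the 16 higher members became 10 after division, 9 with equal lengths, 8 within 20 kb, 4 in nearest flanks and 11 to 17 with a library left out, and the 3 lower became 9 after division, 7 with equal lengths and 1 to 2 with a library left out. ASC-only and FISC-only regions in member loci, 40 and 10, became 6 and 37 with equal lengths. Trimming to equal lengths removed peaks mostly from the ASC lists. The causes were not tested, except that fewer genes enter the 20 kb and nearest flanks. Without a filter the fit includes genes at 0 in every library.

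Over the differences of single members and all alternatives, 548 comparisons kept their direction and side of the threshold. A further 100 kept their direction but lost their call, and 37 kept it and gained a call. Direction was not kept in 68 comparisons of differences not called in the main analysis, and in 10 of called ones. Division by the totals gave -0.63 kb at the Fzd7 ends, -0.47 kb at the Fzd1 ends and -0.47 kb in the Dkk4 flanks. Equal lengths gave -0.009 kb at the Fzd5 ends, -0.17 kb at the Wnt10a ends, -0.23 kb at the Wnt2b ends and -0.37 kb in the Wnt5b flanks. Wnt2b flanks gave -0.29 kb within 20 kb and -0.29 kb as nearest flank, and Fzd9 flanks 1.07 kb within 100 kb. At the ends, leaving out either FISC library left 0 of 12924 genes called by limma, with 3943 and 3759 at an unadjusted p under 0.05, and in the bodies 0 of 6528, with 2644 and 2602.

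The replicate numbers were checked as pairs: deviations of same-numbered libraries correlated at -0.023 at the ends, 0.059 in the bodies and -0.124 in the flanks over genes, and nothing in the labels ties them. The replicate block gave 7 higher and 0 lower at the ends, 2 and 0 in the bodies, and 16 and 2 in the flanks. A crossed replicate block, added after seeing the data, gave 9 and 1, 2 and 0, and 17 and 3.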
